A study of Eublepharis macularius with 23 samples.

Results

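The genes described here are those of retinoic acid signalling, the pathway that turns vitamin A into a hormone that acts on transcription. The set was defined by name and held 10 genes: *STRA6*, *DHRS3*, *ALDH1A2*, *CYP26A1*, *CYP26B1*, *CRABP1*, *CRABP2*, *RARA*, *RARB* and *RARG*. Of these, 8 were matched by symbol to a row in both deposited count tables, which list 22064 genes each. *CYP26A1* and *CYP26B1* were not analysed here.

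RNA was sequenced in bulk from back skin of leopard gecko (*Eublepharis macularius*) embryos at embryonic day 40, a stage at which the skin has begun to make melanin. For Hypome 1, a recessive hypomelanistic morph sold as Tremper Albino, there were 4 libraries from homozygous, 3 from heterozygous and 2 from wild-type embryos, all offspring of 1 pair of heterozygous parents collected over several seasons. For Hypome 3, a different recessive morph sold as Bell Albino, the 3 libraries of heterozygous embryos were used, and no Hypome 3 genotypes were compared. The sex of the embryos was not known, and each embryo carries background variation of its line besides the Hypome allele.

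Vitamin A circulates as retinol bound to a plasma carrier, and STRA6 is a membrane receptor that takes retinol up from that carrier. Inside the cell, retinol dehydrogenases such as RDH10 oxidize retinol to retinal, DHRS3 reduces retinal back to retinol, and the ALDH1A enzymes oxidize retinal to retinoic acid. The CRABP proteins bind retinoic acid in the cytoplasm, CRABP2 delivers it to the nucleus, and CYP26 enzymes degrade it. The receptors RARA, RARB and RARG bind DNA together with RXR partners and switch on target genes, which in other vertebrates include *RARB*, *DHRS3*, *STRA6*, *CYP26A1* and *HOX* genes. In mammalian skin the pathway is known for its control of keratinocyte differentiation.

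Total counts per library ran from 32455975 to 52017277 for Hypome 1 and from 16826633 to 21208295 for Hypome 3. Values are given as CPM, the counts of a gene relative to its library's total after TMM scaling within each table, or as TPM, which also divides by the length of a gene's exons and allows different genes to be compared. Homozygous replicate 1 had the lowest TMM factor, 0.78, and the highest factor was 1.08. The defining markers of dermal fibroblasts and epidermis were present in every library. The summed CPM of 9 epidermal markers was 4605 to 4932 in the homozygous, 3013 to 4174 in the heterozygous and 3736 to 4058 in the wild-type Hypome 1 libraries. The homozygous libraries thus lay above all other Hypome 1 libraries, while the Hypome 3 heterozygous libraries had 3846 to 5556 CPM. In the sum of 8 cartilage and bone markers the homozygous libraries lay below all others, at 75.6 to 89.8 CPM. It was 115 to 382 in heterozygous and 119 to 171 in wild-type libraries. The 6 tested in the edgeR fit below did not move together. Their median log2 fold change in homozygous skin was 0.30 against wild-type and 0.02 against heterozygous skin. In each comparison 1 was higher and 2 lower at an unadjusted p under 0.05, beside 8.53% and 17.8% of all genes. Against the mean of both other genotypes 1 of the 6 had an edgeR adjusted p under 0.05, as did 0.525% of all genes. Skeletal muscle markers, 10 in all, summed to 5048 CPM in homozygous replicate 1, 25.1 to 99.8 in the other homozygous libraries, 325 to 3606 in heterozygous and 477 to 792 in wild-type libraries. The part of these differences in tissue content in the results below was not tested, and in bulk skin fewer cells of a type and less RNA per cell cannot be told apart.

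In the authors' assembly the genes lie on 6 scaffolds, and *CRABP1*, *ALDH1A2* and *STRA6* share Scaffold 18. *STRA6* spans 33733095 to 33780541 on the plus strand in 18 exon blocks, *CRABP1* spans 36074474 to 36084756 on the minus strand in 4 blocks, and *ALDH1A2* spans 39858467 to 39900578 on the plus strand in 13 blocks. *DHRS3* lies on Scaffold 17 from 34329794 to 34360516 with 6 exon blocks, and *CRABP2* on Scaffold 1 from 468307 to 478834 with 4. *RARA* is on Scaffold 12 from 38438707 to 38629310, *RARB* on Scaffold 11 from 54192263 to 54337475, and *RARG* on Scaffold 19 from 7328280 to 7476274. No other annotated gene overlaps any of the 8, so the strand setting of the counting, which is not given in the sources used here, does not add a neighbour's reads to them. *STRA6* has *STRA6L*-like paralogs elsewhere in the assembly, and only uniquely mapped reads were counted.

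Per gene length, 1 carrier and 1 receptor stood above the other members, though genes of the wider pathway lists, such as *BCO2*, *RXRB* and *RBP5*, were at mean levels near or above that of the receptor. *CRABP2*, the carrier that delivers retinoic acid to the nucleus, had 150 to 258 TPM in the Hypome 1 libraries, with a median of 197. *RARG*, the receptor that predominates in mammalian skin, followed with 51.9 to 82.7 TPM and a median of 78.0. The ranges of these genes did not overlap each other or that of any other member.

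The enzymes, the retinol receptor and *RARA* formed a middle group with median levels between 5.06 and 13.2 TPM. *RARA* had 9.06 to 15 TPM, *DHRS3* 8.22 to 16.6 and *ALDH1A2* 4.29 to 13.7 in the Hypome 1 libraries. These neighbouring ranges overlapped: *RARA* was above *DHRS3* in 6 of 9 libraries, and *DHRS3* above *ALDH1A2* in 8 of 9. *STRA6*, at 2.91 to 7.50 TPM, overlapped with *ALDH1A2*, which was the higher of the pair in 6 of 9 libraries.

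*CRABP1* and *RARB* were close to the detection limit. *CRABP1*, the carrier linked to retinoic acid breakdown, had 0 to 10 counts per library, and its median was 0.324 TPM. *RARB* had 2 to 24 counts per library and a median of 0.153 TPM. Neither can be ordered against the other, since *CRABP1* was the higher in 6 of 9 libraries.

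**Figure D1:**
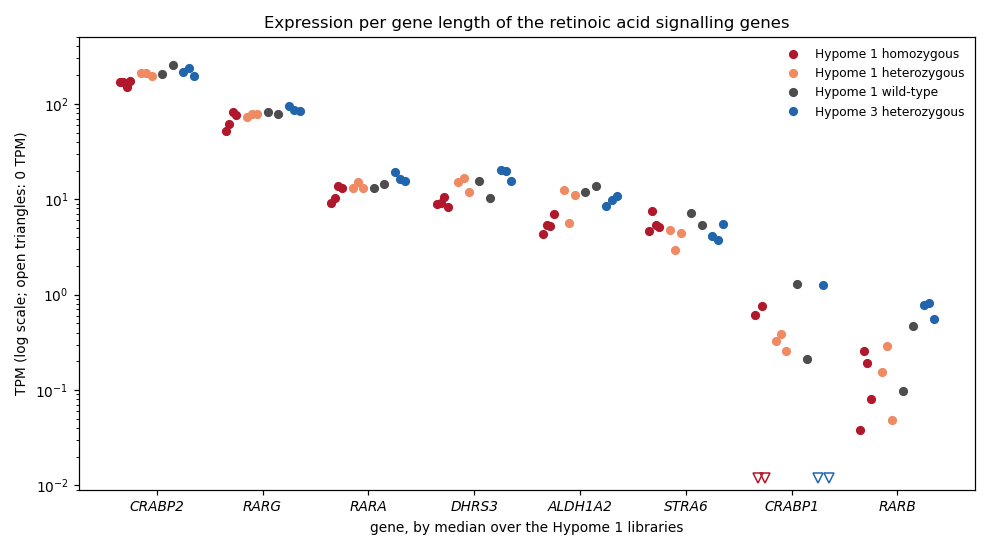
Expression of the 8 genes in TPM on a log scale, 1 point per library, with genes ordered by their median over the 9 Hypome 1 libraries and open triangles for libraries at 0. *CRABP2* and *RARG* sit above the other genes in all libraries, and *CRABP1* and *RARB* lie at or below 1.29 TPM.

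Within families, the division was nearly constant across genotypes. *RARG* held 83.7% to 86.4% of the summed TPM of the 3 RAR receptors in the Hypome 1 libraries, *RARA* held 13.5% to 16.0%, and *RARB* at most 0.505%. *CRABP2* held 99.4% or more of the CRABP total. In the Hypome 3 heterozygous libraries *RARG* held 82.3% to 84.1% and *RARA* 15.3% to 17.0% of the RAR total.

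The order of levels was similar in the Hypome 3 heterozygous skin, which was counted in a separate table, so that line and table differ together and no test was made. *CRABP2* had 197 to 235 TPM there and *RARG* 84.7 to 94.4. *DHRS3*, the retinal reductase, had 15.7 to 20.2 TPM, and in CPM it was 24.5 to 28.7, above the highest Hypome 1 library at 23.2. *RARA* was likewise above every Hypome 1 library, at 33.4 to 39.2 CPM against 26.4 to 30.4, and so was *RARG*, at 177 to 190 CPM against 148 to 176. In TPM *RARA* and *RARG* were again above every Hypome 1 library, while *DHRS3* overlapped with Hypome 1, which reached 16.6 TPM. The share of all genes above every Hypome 1 library was not counted. By mean TPM in the Hypome 3 libraries, most other genes of the pathway lists also exceeded each Hypome 1 genotype, so a higher level there was not particular to the members. *RXRA*, for example, had 30.9 against 16.8 to 20.8. *HOXA3* had 19.0 against 7.24 to 10.3, while *RBP5* was lower, at 44.2 against 53.0 to 64.0. The sparse *RARB* had 19, 17 and 11 counts in these libraries, whose total counts were lower. That is 0.555 to 0.809 TPM, against 0.0383 to 0.474 TPM in Hypome 1. Whether read pairs were counted alike in both tables was not tested. *CRABP1* had 0, 5 and 0 counts.

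Whether homozygosity for Hypome 1 goes with a change in these genes was asked in 4 comparisons from 1 edgeR quasi-likelihood fit of the 9 Hypome 1 libraries: homozygous against wild-type, homozygous against heterozygous, heterozygous against wild-type, and homozygous against the mean of the other genotypes, the contrast for a recessive trait. The comparisons share libraries. *CRABP1* did not reach the minimum count, so 7 members were tested among 16751 genes.

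No member passed an adjusted p of 0.05 in any of the 4 comparisons, and few genes of the whole table did. Of all genes tested, edgeR called 0.0179% between homozygous and wild-type, 0.0358% between homozygous and heterozygous, 0.0% between heterozygous and wild-type, and 0.525% between homozygous skin and the mean of the other genotypes. At an unadjusted p under 0.05 there was 1 member of 7 in the first comparison (*ALDH1A2*), 1 in the second (*STRA6*), 0 in the third and 1 in the fourth (*ALDH1A2*), where 8.53%, 17.8%, 1.53% and 17.6% of all genes had such a p. A count of 1 in 7 is near these backgrounds. With all 9 libraries in the model, DESeq2's Wald test gave an adjusted p to 7, 6, 8 and 8 members in the 4 comparisons. It called 0 in the first 3 and 1 (*ALDH1A2*) in the fourth, beside 1.31%, 7.1%, 0.0% and 6.34% of all genes. With only the libraries of each comparison in the model it called 1 of 6 (*ALDH1A2*), 0 of 6 and 0 of 8 members in the first 3. The shares of all genes were 2.67%, 6.55% and 0.0103%. The median log2 fold change of the 7 members was −0.18 for homozygous against wild-type, beside 0.01 over all genes, and 0.03 for homozygous against heterozygous, beside 0.00.

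*ALDH1A2*, which makes retinoic acid from retinal, had the largest difference from wild-type among the adequately counted members. Its expression was 12.3, 12.4, 9.86 and 14.2 CPM in homozygous replicates 1 to 4. It was 24.5, 9.47 and 20.6 CPM in the heterozygous and 22.5 and 24.3 CPM in the wild-type libraries. All homozygous libraries were thus below both wild-type libraries, and a single heterozygous library, replicate 2, was as low as the homozygous ones.

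The mean of *ALDH1A2* was 12.2 ± 1.77 CPM (SD, n = 4) in homozygous and 23.4 ± 1.29 CPM (SD, n = 2) in wild-type skin, a log2 fold change of −0.94 (standard error 0.30, 95% interval −1.62 to −0.27). The edgeR p was 0.0113 before and 0.451 after Benjamini-Hochberg adjustment. The groups did not overlap (exact permutation test, 2-sided, p = 0.0667, the smallest that 4 against 2 libraries can give), as was the case for 19.5% of all genes tested. When DESeq2 was fitted to these 6 libraries alone it called *ALDH1A2*, with a log2 fold change of −0.95 and an adjusted p of 0.00133, where 2.67% of all genes were called. Over the alternatives tried for this value the adjusted p ran from 0.00133 to 0.999, and without wild-type replicate 2 the unadjusted p from edgeR was 0.0577.

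Against the heterozygous libraries, *ALDH1A2* differed by a log2 value of −0.58 (standard error 0.27, 95% interval −1.19 to 0.03, edgeR adjusted p = 0.303), and the groups overlapped through heterozygous replicate 2. Between heterozygous and wild-type skin the difference was −0.36 (95% interval −1.09 to 0.36). Against the mean of both other genotypes it was −0.76 (95% interval −1.31 to −0.21, edgeR adjusted p = 0.161). Here the call turned on 1 library: without heterozygous replicate 2 the log2 fold change was −0.92 and the edgeR adjusted p 0.0329. DESeq2's test on the 9 libraries also called it, with an adjusted p of 0.0437, where 6.34% of all genes were called. Heterozygous replicate 2 had the highest sum of cartilage and bone markers, 382 CPM, and the lowest of epidermal markers, 3013 CPM, and their part in its value was not tested. With the sampling season as a factor the log2 fold change against the other genotypes was −0.91 (edgeR adjusted p = 0.597), and no season held more than 1 wild-type library. Without homozygous replicates 1 and 4, for which the study lists lower RNA integrity, it was −0.88 (edgeR adjusted p = 0.509).

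*STRA6*, the retinol uptake receptor, had its lowest mean in the heterozygous libraries, in CPM and in TPM. The homozygous libraries had 11.1, 14.5, 8.42 and 8.73 CPM. The heterozygous libraries had 7.80, 4.12 and 6.86 CPM and the wild-type libraries 11.3 and 7.96 CPM. In CPM every homozygous and every wild-type library was above every heterozygous one, while homozygous and wild-type libraries overlapped. The summed CPM of the 9 melanophore markers was likewise low in heterozygous skin, at 1599 to 2213 in homozygous, 997 to 1622 in heterozygous, and 1721 and 2085 in wild-type libraries, with a narrow overlap of homozygous and heterozygous libraries. Between homozygous and heterozygous skin 4 of the 9 were higher at an unadjusted edgeR p under 0.05. Of all genes 17.8% had such a p, in either direction. The part of the melanophore markers in the *STRA6* values was not tested.

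Between homozygous and heterozygous skin, *STRA6* averaged 10.7 ± 2.80 CPM (SD, n = 4) against 6.26 ± 1.91 CPM (SD, n = 3), a log2 fold change of 0.77 (standard error 0.28, 95% interval 0.16 to 1.39). The edgeR p was 0.0190 before and 0.193 after adjustment, and the exact permutation p was 0.0286, the smallest that 4 against 3 libraries can give. Groups that did not overlap made up 17.2% of all genes here. In TPM, which carries no TMM scaling, the same groups overlapped, at 4.60 to 7.50 TPM in homozygous and 2.91 to 4.77 TPM in heterozygous libraries. The heterozygous libraries differed from wild-type by a log2 value of −0.62 (95% interval −1.34 to 0.09, edgeR adjusted p = 1.0), and the homozygous from wild-type by 0.15 (95% interval −0.54 to 0.84). The side of the last value depends on scaling: it was −0.06 with library size only, and in TPM *STRA6* averaged 5.63 in homozygous and 6.22 in wild-type skin. Without heterozygous replicate 2 the edgeR p for homozygous against heterozygous skin was 0.0689, with a log2 fold change of 0.54, and without homozygous replicate 2 it was 0.0581, with 0.59.

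*DHRS3*, which returns retinal to retinol, had 20.2, 16.6, 15.4 and 13.2 CPM in homozygous, 23.2, 22 and 17.6 CPM in heterozygous, and 23.0 and 14.3 CPM in wild-type libraries. The genotypes overlapped in CPM in every comparison. The log2 fold change was −0.19 against wild-type (95% interval −0.69 to 0.32) and −0.36 against heterozygous libraries (95% interval −0.80 to 0.09, edgeR adjusted p = 0.369). In TPM the homozygous libraries, at 8.22 to 10.5, were all below the heterozygous ones, at 12 to 16.6. TPM carries no TMM scaling, and with library size only the median log2 fold change of all genes was −0.18 here. TPM also divides by a total that weighs genes by length, so its shift over all genes can differ, and it was not computed. *RARA* averaged 11.6 TPM in homozygous and 13.7 in heterozygous skin, though its mean CPM was 28.8 and 28.1. The share of all genes that separate in TPM was not counted.

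The ratio of *DHRS3* to *STRA6* within a library does not depend on how libraries are scaled. On the log2 scale of TPM with 0.1 added it was 0.29 to 0.96 in homozygous, 1.44 to 2.48 in heterozygous and 0.93 to 1.11 in wild-type libraries. The homozygous libraries were below all heterozygous ones, by a mean of −1.14 (exact permutation p = 0.0286, the smallest possible, or 0.556 after Benjamini-Hochberg adjustment over the 20 ratio comparisons made), and they overlapped with wild-type (difference −0.30, exact permutation p = 0.400). The other ratios examined were *CRABP1* to *CRABP2*, *RARB* to *RARG*, and, added after values were seen, *RARA* to *RARG* and *ALDH1A2* to *DHRS3*. None of these separated homozygous from wild-type or heterozygous libraries.

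**Figure D2:**
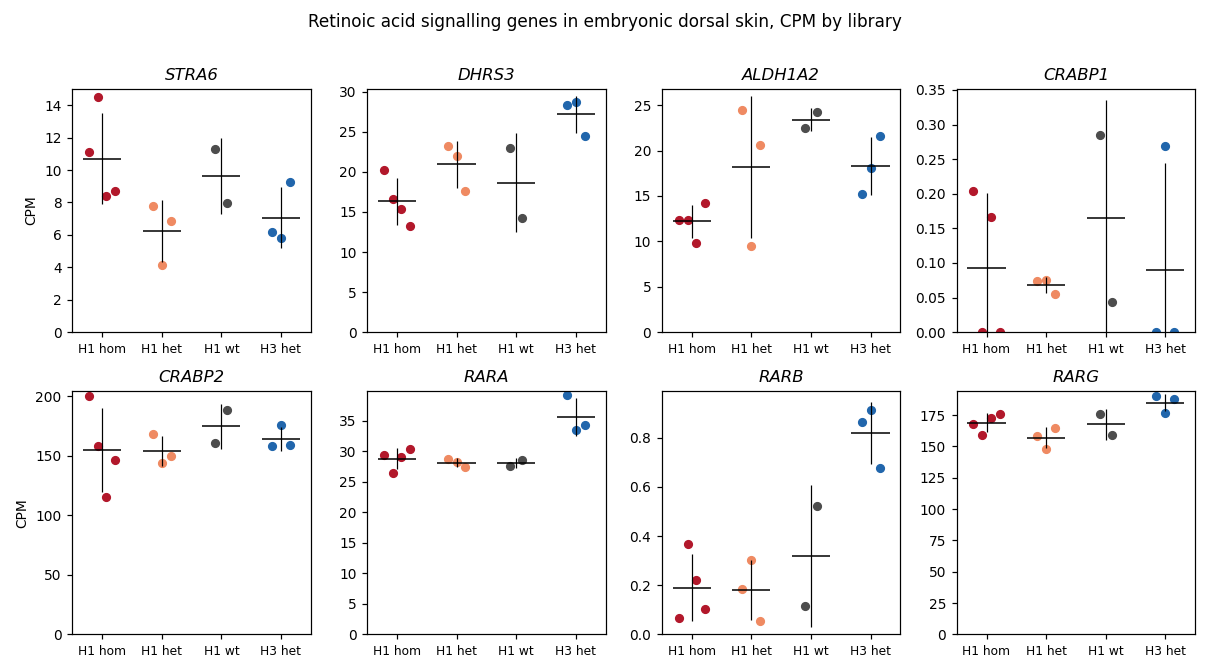
CPM of the 8 genes in each library, with H1 for Hypome 1, H3 for Hypome 3, hom, het and wt for the genotypes, a horizontal line at each mean and a vertical line of 1 SD either side, drawn from 0 up. *ALDH1A2* lies at 9.86 to 14.2 CPM in the homozygous libraries, below both wild-type libraries, while *RARA* stays between 26.4 and 30.4 CPM in the Hypome 1 libraries.

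The carriers of retinoic acid did not separate the genotypes in CPM. *CRABP2* had 200, 158, 115 and 146 CPM in homozygous, 168, 144 and 150 CPM in heterozygous, and 161 and 188 CPM in wild-type libraries. Its log2 fold change was −0.18 against wild-type (95% interval −0.63 to 0.28) and 0.00 against heterozygous skin (95% interval −0.40 to 0.40). The reading depends on scaling: in TPM all homozygous libraries, at 150 to 174, were below the heterozygous, at 197 to 211, and the wild-type libraries, at 208 and 258. With library size only the median log2 fold change of all genes was also −0.18 against each of these genotypes. This −0.18 is not the shift of all genes in TPM, which was not computed. *RARA* averaged 11.6 TPM in homozygous and 13.6 in wild-type skin, though its mean CPM was 28.8 and 28.1. The share of all genes that separate in TPM was not counted. *CRABP1* had 6, 0, 6 and 0 counts in homozygous, 4, 3 and 2 in heterozygous, and 10 and 2 in wild-type libraries. A library with 0 counts allows up to 3 counts, which is 0.0689 CPM in homozygous replicate 2 and 0.0768 CPM in replicate 4, so no difference was detectable at this depth.

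The 2 main receptors were the steadiest members. *RARA* had 29.3, 26.4, 29.0 and 30.4 CPM in homozygous, 28.7, 28.3 and 27.4 CPM in heterozygous, and 27.5 and 28.6 CPM in wild-type libraries. Its log2 fold change against wild-type was 0.04, and the 95% interval of −0.22 to 0.29 bounds any difference on this scale. *RARG* had 168, 159, 173 and 176 CPM in homozygous, 158, 148 and 165 CPM in heterozygous, and 176 and 159 CPM in wild-type libraries, with a log2 fold change of 0.01 (95% interval −0.27 to 0.29) against wild-type. Over the 9 libraries the SD of log2 CPM was 0.06 for *RARA* and 0.09 for *RARG*, against 0.55 for *ALDH1A2* and 0.51 for *STRA6*. Without TMM factors both receptors turned to the other side of 0, to −0.16 for *RARA* and −0.18 for *RARG*, and the median of all genes moved by the same −0.18.

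*RARB*, which retinoic acid induces in other vertebrates, could not be resolved. It had 2, 16, 8 and 4 counts in homozygous, 10, 12 and 2 in heterozygous, and 4 and 24 in wild-type libraries. The log2 fold change of −0.73 against wild-type had a 95% interval of −2.78 to 1.32, and without wild-type replicate 2 it was 0.74.

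**Figure D3:**
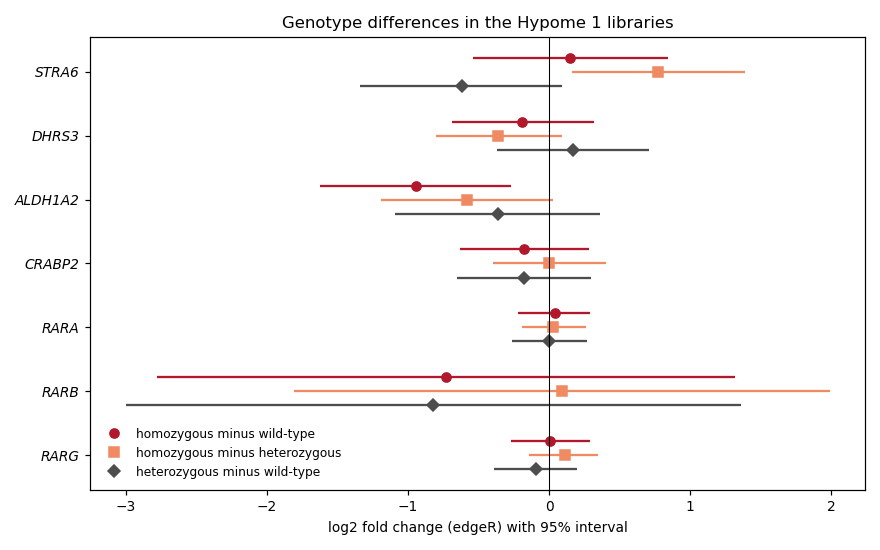
Log2 fold changes with 95% intervals from the edgeR fit for the 7 genes tested, for homozygous against wild-type (circles), homozygous against heterozygous (squares) and heterozygous against wild-type (diamonds). The intervals of *ALDH1A2* against wild-type, −1.62 to −0.27, and of *STRA6* against heterozygous skin, 0.16 to 1.39, leave out 0, and the widest intervals are those of *RARB*.

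*RARB* was the member with the largest SD of log2 CPM, 0.69. Over the 9 Hypome 1 libraries the genes whose log2 CPM followed it most closely were *DNAJC10* (Pearson r = 0.912), *LOC129329365* (*ZSCAN2-like*, r = 0.907) and *ACRBP* (r = 0.905). For *ALDH1A2*, looked up after its values were seen, they were *KCNK15* (r = 0.944), *SHC1* (r = 0.919) and *P2RY14* (r = 0.919). These are the highest of 16751 coefficients over 9 libraries that share genotypes and are given as a description.

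Beyond the members, 94 genes of the pathway were listed in 5 groups: uptake, transport and storage of vitamin A, retinol and retinal conversion, synthesis and breakdown of retinoic acid, receptor partners and cofactors, and genes induced by retinoic acid in other vertebrates. Of these 69 had a row and 62 were tested, and edgeR called 0 in each comparison. DESeq2 with all 9 libraries called 1 of the 59 with an adjusted p (1.69%, against 1.31% of all genes) between homozygous and wild-type (*RDH10*), 8 of 59 (13.6%, against 7.1%) between homozygous and heterozygous, 0 of 69 between heterozygous and wild-type, and 8 of 65 (12.3%, against 6.34%) between homozygous skin and the mean of the other genotypes. The 13.6% and the 12.3% were above their backgrounds. The lists themselves were not tested, and they were chosen with earlier results of these data known, so no conclusion is drawn from this excess. At an unadjusted p under 0.05 edgeR gave 6 (9.68%, against 8.53% of all genes) between homozygous and wild-type, 13 (21.0%, against 17.8%) between homozygous and heterozygous, 1 (1.61%, against 1.53%) between heterozygous and wild-type, and 13 (21.0%, against 17.6%) between homozygous skin and the mean of the other genotypes. These edgeR shares stand nearer to their backgrounds.

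The group of uptake, transport and storage held the largest difference among the 62 genes, that of *RBP2*. Against the mean of the other genotypes, 4 of its 13 tested genes had a positive log2 fold change with an unadjusted p under 0.05 (*RBP2*, *RBP7*, *SCARB1* and *BCO2*) and 1 a negative one (*BCO1*), shares of 13 to read beside 9.96% and 7.67% of all genes. *RBP2*, an intracellular retinol carrier best known from the intestine, had 30, 40, 26 and 36 counts in homozygous, 2, 0 and 8 in heterozygous, and 6 and 2 in wild-type libraries. All homozygous libraries, at 0.720 to 1.02 CPM, were above the others, at 0.00 to 0.222 CPM, with a log2 fold change of 3.23 against the other genotypes (standard error 0.78, edgeR adjusted p = 0.0823, exact permutation p = 0.00794, the smallest possible). DESeq2's test on the 9 libraries gave it an adjusted p of 0.000807. Without heterozygous replicate 3 edgeR called it (log2 fold change 4.16, adjusted p = 0.0353), where 1.39% of all genes were called. Over the alternatives tried, its log2 fold change stayed between 2.63 and 4.16 and its adjusted p between 0.000807 and 0.567. The share of all genes whose homozygous libraries did not overlap the rest was 9.65%.

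*SCARB1*, a scavenger receptor that takes up lipoprotein lipids and carotenoids, had 132, 79.0, 51.8 and 93.5 CPM in homozygous, 31.5, 22.4 and 46.6 CPM in heterozygous, and 52.7 and 35.8 CPM in wild-type libraries. The homozygous libraries exceeded the heterozygous ones and overlapped with wild-type through replicate 3. The log2 fold change was 1.21 against the other genotypes (edgeR adjusted p = 0.0812) and 1.41 against heterozygous skin (edgeR adjusted p = 0.0990). Without homozygous replicate 3 these were 1.40 and 1.61, with edgeR adjusted p of 0.0260 and 0.0354. In that fit edgeR called 2.45% and 1.64% of all genes. Over the alternatives tried, the adjusted p of *SCARB1* ran from 0.000846 to 0.617 and from 0.000546 to 0.999. *RBP7*, another intracellular retinol carrier, differed by 0.95 against the other genotypes (edgeR adjusted p = 0.116), and by 1.13 without homozygous replicate 3 (edgeR adjusted p = 0.0444). Its adjusted p in this comparison ran from 0.0166 to 0.633 over the alternatives. Both genes were called by DESeq2 on the 9 libraries, *SCARB1* with adjusted p-values of 0.000846 against the other genotypes and 0.000546 against heterozygous skin, and *RBP7* with 0.0166 and 0.0107.

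*BCO2*, which cleaves carotenoids, was named here after its values were seen, because it separated the lines. It had 243 CPM in homozygous replicate 2 and 108 to 134 CPM in the other homozygous Hypome 1 libraries. Heterozygous libraries had 64.2 to 96.1 CPM and wild-type libraries 97.7 and 105 CPM. In TPM the homozygous libraries, at 76.6 to 175, overlapped with the heterozygous, at 62.9 to 85.0, and the wild-type ones, at 90.2 and 91.1. The log2 fold change of *BCO2* against the other genotypes was 0.72 (edgeR adjusted p = 0.180). It was called by DESeq2 on the 9 libraries in this comparison and against heterozygous skin. The Hypome 3 heterozygous libraries had 5.51, 3.60 and 4.68 CPM. Line and table cannot be told apart in this contrast, and it was not tested.

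*RDH10*, the enzyme upstream of *ALDH1A2* that makes retinal, had the smallest p of the conversion group. Of its 5 tested genes, 2 had an unadjusted edgeR p under 0.05 against the other genotypes. *RDH10* was the lower and *RDH5* the higher in homozygous skin (*RDH5* log2 fold change 0.48, edgeR adjusted p = 0.255). These shares of 5 are to be read beside 7.67% lower and 9.96% higher of all genes. *RDH10* had 28.5, 40.2, 38.7 and 39.5 CPM in homozygous, 52.1, 64.8 and 50.4 CPM in heterozygous, and 53.7 and 75.2 CPM in wild-type libraries. Every homozygous library was below every other library, in CPM and in TPM. In CPM 9.65% of all genes separated homozygous from the other Hypome 1 libraries, on either side. *RDH10* was named for its small p in these same libraries, so its separation is no further support. The mean was 36.7 ± 5.54 CPM (SD, n = 4) in homozygous and 64.4 ± 15.2 CPM (SD, n = 2) in wild-type skin. The log2 fold change was −0.81 against wild-type (standard error 0.18, edgeR adjusted p = 0.337), −0.60 against heterozygous skin (standard error 0.17, edgeR adjusted p = 0.117) and −0.71 against both (standard error 0.15, edgeR adjusted p = 0.0646, exact permutation p = 0.00794, the smallest possible). DESeq2's test on the 9 libraries called it in all 3, with adjusted p-values of 0.0193, 0.0284 and 0.0015. Over the alternatives tried for the last value the log2 fold change stayed between −0.88 and −0.57 and the adjusted p between 0.0015 and 0.563, which was reached with the season as a factor. The Hypome 3 heterozygous libraries had 86.4, 81.1 and 53.9 CPM.

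The other retinal dehydrogenases were described after their values were seen, as context for *ALDH1A2*. By TPM, *ALDH1A1* and *ALDH1A3* were both more abundant than *ALDH1A2* in every library, narrowly so for *ALDH1A1* in heterozygous replicate 2, with 5.88 against 5.64 TPM. *ALDH1A2* made up 7.62% to 11.6% of the summed TPM of the 3 enzymes in homozygous, 10% to 22.3% in heterozygous and 18.5% and 20.6% in wild-type libraries. *ALDH1A1* had 32.9 to 44.8 CPM in homozygous, 5.35 to 27.0 CPM in heterozygous, and 21.4 and 32.9 CPM in wild-type libraries. *ALDH1A3* had 36.6 to 53.9 CPM in homozygous, 46.7 to 81.6 CPM in heterozygous, and 51.4 and 50.4 CPM in wild-type libraries. Against wild-type the log2 fold changes were 0.51 for *ALDH1A1* (95% interval −0.57 to 1.60) and −0.17 for *ALDH1A3* (95% interval −0.69 to 0.35). Against heterozygous skin they were 1.08 (95% interval 0.11 to 2.04, edgeR adjusted p = 0.236) and −0.38 (edgeR adjusted p = 0.362). For *ALDH1A1* all homozygous libraries were above the others in CPM, as were or were below 9.65% of all genes. The margin to wild-type was within rounding, and in TPM the groups overlapped. The summed TPM of the 3 enzymes overlapped, at 46.3 to 69.2 in homozygous, 56.1 to 61.0 in heterozygous and 57.9 and 73.7 in wild-type libraries.

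Few of the receptor partners and cofactors, among them the RXR genes, had a low p. Of 15 tested, 0 had an unadjusted p under 0.05 in edgeR between homozygous and wild-type, beside 8.53% of all genes. The coactivator *NCOA1* was the 1 with such a p (6.67%) against heterozygous skin, beside 17.8% of all genes, with a log2 fold change of −0.56 (edgeR adjusted p = 0.167). It was also the 1 against the mean of the other genotypes, beside 17.6%, with −0.45 (edgeR adjusted p = 0.208). DESeq2's test on the 9 libraries gave the same counts at an unadjusted p under 0.05 in these 3 comparisons.

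**Figure D4:**
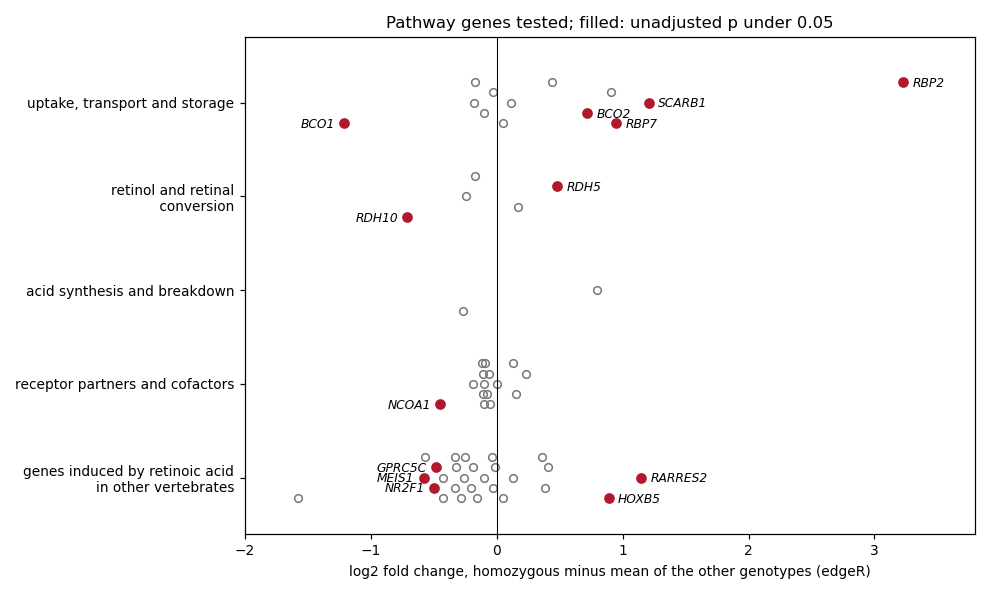
Log2 fold changes of the 62 listed pathway genes between homozygous skin and the mean of the other genotypes, 1 point per gene and 1 row per group, filled where the unadjusted edgeR p was under 0.05. *RBP2* stands apart at 3.23, and *RDH10* lies at −0.71.

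Among 27 tested genes that retinoic acid induces in other vertebrates, 2 had a positive and 3 a negative log2 fold change with an unadjusted p under 0.05 against the other genotypes, beside the same 9.96% and 7.67% of all genes. Their median was −0.20, beside 0.01 over all genes. *RARRES2*, which encodes the chemoattractant chemerin, had 2.12 to 5.93 CPM in homozygous, 0.904 to 1.32 CPM in heterozygous, and 3.67 and 1.98 CPM in wild-type libraries. The homozygous libraries were all above the heterozygous ones (log2 fold change 1.85, standard error 0.43, edgeR adjusted p = 0.0984) and overlapped with the wild-type ones (0.44, edgeR adjusted p = 0.828), and the melanophore marker sum given with *STRA6* was also low in heterozygous skin. *HOXB5*, a *HOX* transcription factor gene, had 7.09 to 12.8 CPM in homozygous, 3.89 to 6.28 CPM in heterozygous, and 6.89 and 3.57 CPM in wild-type libraries. All homozygous libraries were the higher (log2 fold change 0.89 against both, edgeR adjusted p = 0.120), where 9.65% of all genes separated on either side.

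On the other side, *GPRC5C*, an orphan receptor gene, had 8.21 to 8.89 CPM in homozygous, 10.2 to 13.3 CPM in heterozygous, and 13.1 and 11 CPM in wild-type libraries. The homozygous libraries did not overlap the others (log2 fold change −0.48 against both, edgeR adjusted p = 0.107), beside the same 9.65% of all genes. *MEIS1*, a cofactor of HOX proteins, had 57.9 to 79.8 CPM in homozygous, 90.6 to 177 CPM in heterozygous, and 75.1 and 113 CPM in wild-type libraries, and its log2 fold change was −0.76 against heterozygous skin (edgeR adjusted p = 0.158). *NR2F1*, an orphan nuclear receptor, differed by −0.50 against both genotypes (edgeR adjusted p = 0.190), with 6.54 to 8.03 CPM in homozygous, 8.74 to 11.6 CPM in heterozygous, and 7.91 and 12.9 CPM in wild-type libraries. None of these passed edgeR's threshold. DESeq2's test on the 9 libraries called *RARRES2*, *HOXB5* and *GPRC5C* against the other genotypes, and *RARRES2*, *HOXB5* and *MEIS1* against heterozygous skin (adjusted p = 0.0397 for *MEIS1*). Heterozygous replicate 2 was highest for *MEIS1*, at 177 CPM against 94.3 and 90.6. Over the alternatives the *MEIS1* log2 fold change against heterozygous skin ran from −0.94 to −0.36, and its adjusted p from 0.0372 to 0.999. Without the lower-integrity libraries that of *HOXB5* was 0.62 (edgeR adjusted p = 0.592).

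**Figure D5:**
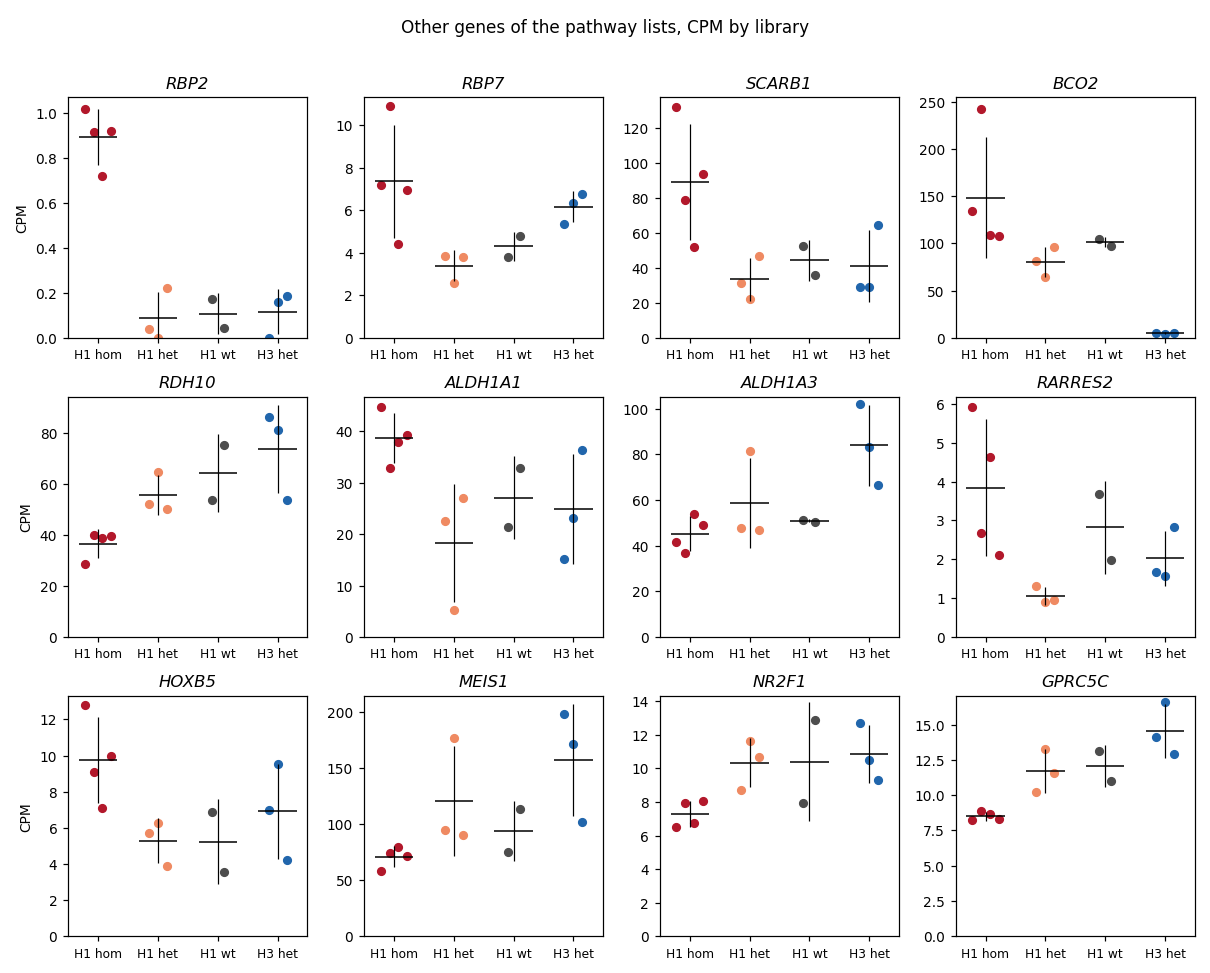
CPM of 12 other pathway genes in each library, drawn as for the members above with the mean and 1 SD per group. The 4 homozygous libraries lie above all other Hypome 1 libraries for *RBP2* and *HOXB5*, and narrowly for *BCO2* and *ALDH1A1*. They lie below them for *RDH10* and *GPRC5C*. Of all genes, 9.65% separate in this way on either side. *BCO2* is at 3.60 to 5.51 CPM in the Hypome 3 heterozygous libraries.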

How the data were processed

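The authors deposited raw counts, which were used without change. The study describes stranded mRNA reads aligned with STAR 2.7.10b to the authors' assembly, which has a lifted-over annotation. It describes uniquely mapped pairs counted per gene with Subread 2.0.6 (featureCounts). 1 gene broken over 5 lines and 3 Hypome 3 columns that match no labelled sample were left out. In Hypome 1, 57.8% to 65.5% of counts between 10 and 2000 were even (Hypome 3: 49.9% to 50.0%). Hypome 1 totals were also above the read numbers the study gives for its gecko libraries. Whether the mates of a pair were counted singly there was not tested. Small Hypome 1 counts may therefore stand for fewer fragments, and halving the counts was an alternative. The libraries are separate embryos.

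In R 4.3.3, edgeR 4.0.16 (TMM, minimum count 10, minimum total 15, 16751 genes) fitted 1 quasi-likelihood model to the 9 Hypome 1 libraries, with 6 residual degrees of freedom, a median prior of 3.91 and a common coefficient of variation of 0.301. Tests were 2-sided with Benjamini-Hochberg adjustment over all genes tested. Exact permutation tests used log2 of CPM plus 0.1, and the smallest p they allow is 0.0667, 0.0286, 0.1 and 0.00794 for the 4 comparisons. A library at 0 was taken to allow 3 counts, which covers counting error only.

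Alternatives were DESeq2 1.42.0 (9 libraries, or only those compared), its size factors in edgeR, library size only, no filter, a stricter filter (10 counts in each library), a block for the replicate number, the season, leaving out the lower-integrity libraries, and leaving out each library. Season and integrity were joined to libraries by replicate number, which is uncertain. The fit was checked on simulated data.

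The members, the gene lists and the rule for named genes were chosen with earlier results of these data known. Named pathway genes were any gene called by edgeR and, for each comparison with homozygous skin, the 3 with the smallest unadjusted p under 0.05 in each direction. *BCO1*, *BCO2*, *RDH5*, *NCOA1*, *ALDH1A1* and *ALDH1A3* fall outside this rule and were named after their values were seen. *RXRA*, *RXRB*, *RBP5* and *HOXA3* also fall outside it and were named for their levels. For the member of largest SD of log2 CPM, the 3 genes of highest Pearson r were named. The other series data were not used here.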

Additional observations from a re-analysis of the deposited data

Results flagged for a closer look

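Among the 20 genes described in the 4 homozygous libraries, 1 had a library far from its group: *RDH10* was at 28.5 CPM in homozygous replicate 1, while the other homozygous libraries had 38.7 to 40.2 CPM. By chance about 1 in 20 such groups stands out in this way. Homozygous replicate 1 also had the lowest TMM factor, 0.78, and the highest skeletal muscle sum, 5048 CPM, and their part in the value was not tested. Without this library the *RDH10* log2 fold change was −0.61 against the mean of the other genotypes, with an edgeR adjusted p of 0.0944.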

How the results depend on the processing

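Of the members' log2 fold changes under the alternatives, 470 of 514 kept their direction and their side of the threshold, 3 passed it (all *ALDH1A2*, given above) and 41 changed sign, none of them of a called value. In the comparisons with homozygous skin, the pathway genes named by the rule changed sign in 0 of 501 values. They passed the threshold in 28, mostly under DESeq2. The rule chose them for a small p in these same comparisons, which favours a stable sign. Between heterozygous and wild-type skin, which is not in the 501, ranges crossed 0 for *GPRC5C*, *HOXB5* (−0.41 to 0.57), *MEIS1*, *NR2F1* (−0.32 to 0.39), *RBP2*, *RDH10* and *SCARB1*. Those of *RARRES2* and *RBP7* did not. Library size only, which moved the median of all genes by −0.18 against each other genotype, gave *CRABP2* −0.20 against heterozygous, *RARA* −0.16, −0.15, −0.01 and −0.15 in the 4 comparisons in the order used above, *RARB* −0.06 against heterozygous, *RARG* −0.18 against wild-type, −0.07 against heterozygous and −0.13 against both, and *STRA6* −0.06 against wild-type. DESeq2 on only the groups compared gave *RARA* −0.00039 between heterozygous and wild-type. Season as a factor gave *CRABP2* −0.12 against heterozygous, *RARB* 0.47 against both, and *DHRS3* −0.16 between heterozygous and wild-type. Without the lower-integrity libraries, *CRABP2* was −0.17 against heterozygous, *RARA* −0.01 in each of the comparisons with homozygous skin, *RARB* 0.30 against both, and *RARG* −0.01 against wild-type. The cause was not tested for any of these.

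Same-numbered libraries did not deviate together (correlations −0.199 to 0.153), so the numbers were not taken to pair the samples. The replicate block gave *RARB* 0.03 against both, *RARG* −0.04 and *DHRS3* 0.02 against wild-type, and changed the call of no member. It gave 0, 0, 0 and 3 called genes of all tested.

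Leaving out 1 library gave ranges that cross 0 for *CRABP2* (−0.15 to 0.13 against heterozygous, −0.24 to 0.04 against both), *RARA* (−0.02 to 0.03 between heterozygous and wild-type), *RARB* (−1.42 to 0.74 against wild-type, −0.45 to 0.63 against heterozygous, −1.51 to 0.66 between heterozygous and wild-type, −0.86 to 0.42 against both), *RARG* (−0.06 to 0.09 against wild-type), *DHRS3* (−0.49 to 0.19 against wild-type, −0.13 to 0.55 between heterozygous and wild-type) and *STRA6* (−0.08 to 0.42 against wild-type).

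Of all genes, edgeR called 3, 6, 0 and 88 in the 4 comparisons. DESeq2 called 214, 1135, 0 and 1109 with the 9 libraries and 426, 1039 and 2 with only the groups compared. No filter gave 16 against heterozygous and 195 against both, halved counts 167 against both, the season 0 against heterozygous and 2 against both, and leaving out the lower-integrity libraries 1, 2, 0 and 3. Without 1 library the 4 counts ran from 0 to 14, 2 to 274, 0 to 3 and 3 to 409, each highest without homozygous replicate 3 except the third, which was highest without heterozygous replicate 3.

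Members called were 0 in edgeR. DESeq2 called 1 on only the groups compared (homozygous against wild-type) and 1 on the 9 libraries (against both), and leaving out 1 library gave 0 to 1 against both, the 1 being without heterozygous replicate 2. Members with an unadjusted p under 0.05 were 2, 2 and 3 under library size only (against wild-type, heterozygous and both), 2 under DESeq2 on the 9 libraries and 0 with the season as a factor (both against heterozygous). Leaving out 1 library they were 0 to 1 against wild-type (0 without wild-type replicate 2), 0 to 2 against heterozygous (0 without homozygous replicate 2, 2 without homozygous replicate 1), 0 to 1 between heterozygous and wild-type (1 without heterozygous replicate 1), and 1 to 2 against both (2 without wild-type replicate 2). Depth limits *CRABP1* and *RARB*, at 0 to 24 counts a library. DESeq2 on only the groups compared gives no value against both genotypes.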
